A study of Mus musculus with 21 samples.

Results

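The genes described here are 9 chemokine ligands, Cxcl9, Cxcl10, Cxcl1, Cxcl13, Cxcl16, Ccl2, Ccl4, Ccl5 and Ccl7. They were taken by name, as every probe set whose only gene symbol in the platform annotation was one of these, which gave 14 of the 45101 probe sets on the array. At the level of genes, with the brightest probe set standing for its gene, they are 9 of 18193. Cxcl9, Cxcl10, Cxcl1 and Cxcl13 lie on mouse chromosome 5 and the other 5 on chromosome 11 (GRCm38.p6, from a RefSeq table used for names and positions).

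Chemokines are small secreted proteins that bind receptors on white blood cells and steer those cells along a concentration gradient. The 2 main families, CXC and CC, are named after the spacing of their first cysteines. In liver, chemokines come from hepatocytes, Kupffer cells (the resident macrophages), sinusoidal endothelium and lymphocytes, and many of their genes are switched on by interferons or by NF-kB signalling.

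Livers of female NMRI mice, an outbred stock, were compared after a dose of SPC3372, an LNA-antimiR (a locked nucleic acid oligonucleotide) against microRNA-122, the main microRNA of hepatocytes, or after saline. Treated mice received 25 mg per kg on day 2 and control mice received saline, and livers were taken on day 3, 9 or 23, which is 1, 7 or 21 days after the dose. Each of the 6 groups held 3 mice, which the submitters call biological replicates, and total liver RNA was hybridised to Affymetrix mouse arrays. Mouse numbers recur between days 3 and 9 in the labels, for 1 SPC3372 mouse and all 3 saline mice. They are taken as different animals, because mice were killed when the liver was sampled. Day 3 and day 9 were measured on arrays of a set called p0617 and the day 23 comparison on a set called p0621, so that each comparison of SPC3372 with saline stays within 1 set. The tissue is whole liver, so fewer cells of a type and less RNA per cell cannot be told apart.

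Values are log2 expression values made by the authors with RMA, on which a step of 1 is a doubling. The tissue label was borne out by its markers: all 9 measured hepatocyte markers, Alb and Apoa1 among them, lay above the median level of all genes, 0 of them passed the test of SPC3372 against saline at any day, and Alb stood at 14.86 ± 0.01 in SPC3372 and 14.82 ± 0.01 in saline mice at day 3 (SD, n = 3 each). In 1 measure of RNA quality, the log2 signal of the 3′ beta-actin control probe set minus that of the 5′ one, the day 3 groups did not overlap: it was 1.03 ± 0.02 in SPC3372 and 0.80 ± 0.05 in saline mice. At day 9 it was 1.14 ± 0.02 in SPC3372 and 0.93 ± 0.06 in saline mice, and at day 23 it was 1.15 ± 0.16 in SPC3372 and 1.16 ± 0.04 in saline mice. The part of this measure in the results below was not tested.

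At day 3, 1 day after the dose, Cxcl9 and Ccl5 rose in SPC3372 liver and the other 7 chemokines did not pass the test (limma over all 18193 genes, Benjamini-Hochberg adjusted p below 0.05). Thus 2 of 9 were called higher, beside 2.63% of all genes tested, and 0 of 9 lower, beside 1.88%. Cxcl9, a ligand of the receptor Cxcr3 that attracts activated T and NK cells, was 7.01-fold higher. Ccl5, a ligand of Ccr1 that is made by T and NK cells among others, was 2.86-fold higher. The median difference of the 9 chemokines was 0.18 on the log2 scale, beside 0.01 for all genes, and 6 of the 9 differences were positive.

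**Figure D1:**
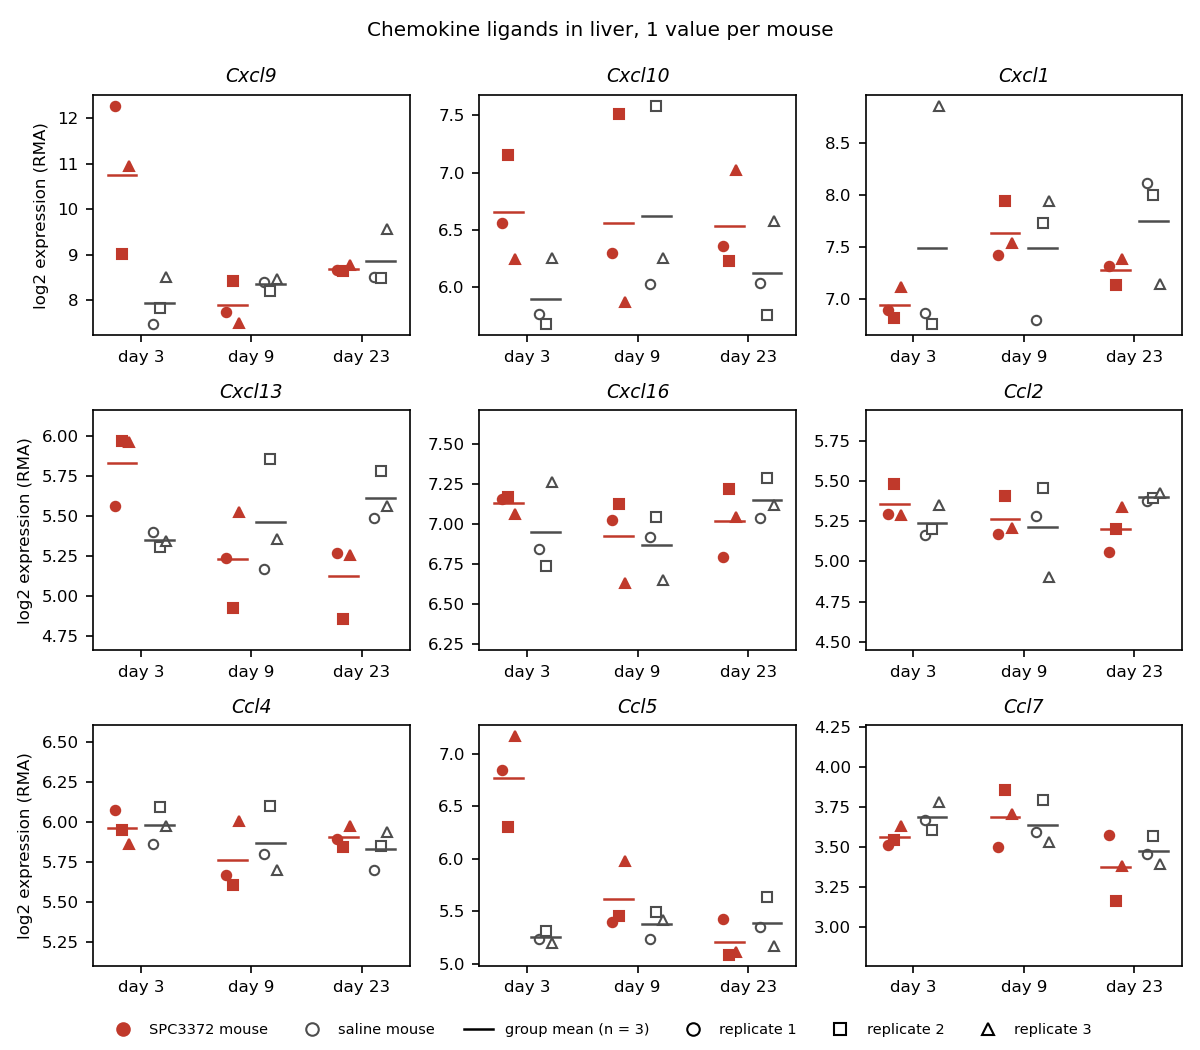
Log2 RMA expression (y axis) of each of the 9 chemokines at days 3, 9 and 23 (x axis), with 1 point per mouse, filled for SPC3372 and open for saline, and a line at the mean of 3 mice; each panel has its own y range of at least 1.5. Cxcl9 and Ccl5 stand apart at day 3, where their lowest SPC3372 mice (9.02 and 6.30) lie above their highest saline mice (8.50 and 5.32), and the groups of both genes overlap at days 9 and 23.

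The size of the Cxcl9 rise differed widely among the 3 SPC3372 mice. Its day 3 values were 12.27, 9.02 and 10.94 in SPC3372 mice (replicates 1, 2 and 3) and 7.47, 7.83 and 8.50 in saline mice. All 3 SPC3372 mice thus lay above all 3 saline mice, but they were 20.2-fold, 2.12-fold and 8.02-fold above the saline mean. The mean difference was 2.81 (SE 0.54, adjusted p = 0.00522 by limma). The SD of the 3 SPC3372 mice was 1.64, and 7 of the 18193 genes had a larger one in this group, in which the median SD was 0.12.

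The Cxcl9 call held without any 1 of the 6 mice of day 3, though its size moved with the mice. Without SPC3372 replicate 1 the difference was 2.04 (adjusted p = 0.0216 by limma) and without replicate 2 it was 3.67 (adjusted p = 5.78e-05). In a fit on the 6 arrays of day 3 alone, whose spread is then not shared with the other days, the call ended (adjusted p = 0.0923). It also ended in a test against a change of at least 1.5-fold (adjusted p = 0.163), and the difference was 1.56 when the mean of both Cxcl9 probe sets stood for the gene.

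The pair of Cxcl9 probe sets gave different pictures at day 3. The values above are from 1418652_at. The dimmer probe set, 1456907_at, read 4.90, 4.29 and 4.20 in SPC3372 mice and 3.81, 4.18 and 4.45 in saline mice, and here the groups overlap. Its difference was 0.31 (SE 0.18, adjusted p = 0.487 over every probe set). Its level lies at percentile 39.5 of all probe sets, and that of 1418652_at at percentile 90.

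The Ccl5 rise was smaller and more even. Ccl5 stood at 6.84, 6.30 and 7.16 in SPC3372 mice and at 5.24, 5.32 and 5.20 in saline mice, so that every SPC3372 mouse lay at least 2.07-fold above the saline mean. The difference was 1.52 (SE 0.19, adjusted p = 0.00013 by limma), and the saline mice spanned only 0.11. The call held in each of 15 other settings that gave it a value, with an adjusted p from 2.99e-05 to 0.0421 by limma. Among SPC3372 mice both called genes were lowest in replicate 2, while Cxcl10 and Ccl2 were highest in that mouse. Cxcl13 (5.966, beside 5.959 in replicate 3) and Cxcl16 (7.168, beside 7.16 in replicate 1) were nearly tied. The other Cxcl13 probe set, 1417851_at, was highest in replicate 2 (6.848). The other Cxcl16 probe set, 1449195_s_at, was highest in replicate 1 (6.546, beside 6.219 in replicate 2).

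**Figure D2:**
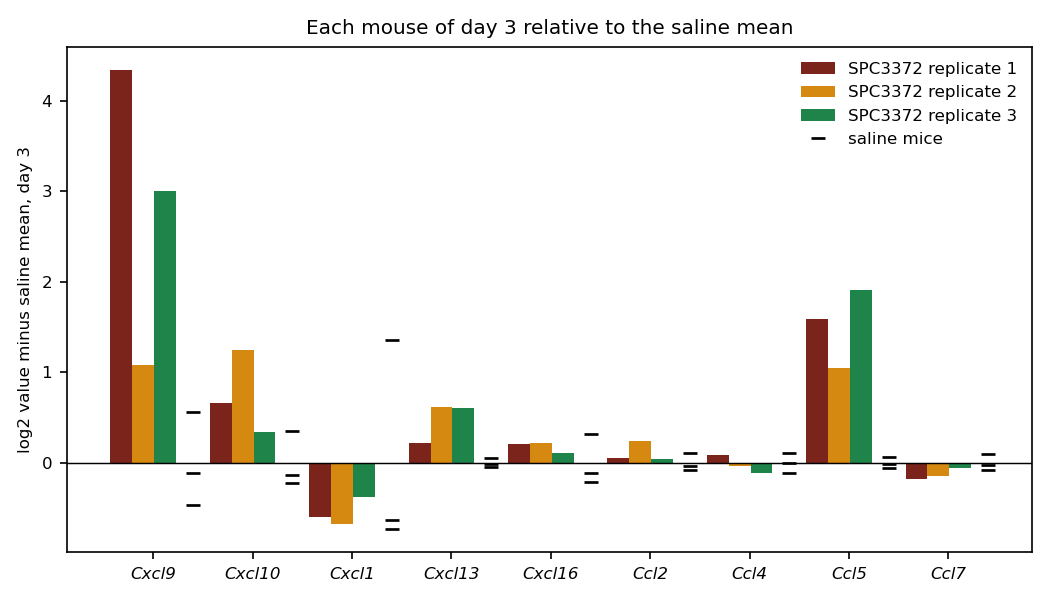
Log2 value of each SPC3372 mouse of day 3 minus the mean of the saline mice (bars, y axis), for the 9 chemokines (x axis), with the 3 saline mice as short dashes to the right of the bars. Cxcl9 and Ccl5 are lowest in SPC3372 replicate 2 (1.09 and 1.05), in which Cxcl10 is highest (1.25), and the upper Cxcl1 dash is saline replicate 3.

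Cxcl10 is, like Cxcl9, a Cxcr3 ligand, and its gene lies 18558 bases from Cxcl9 on chromosome 5. Its day 3 values were 6.56, 7.15 and 6.25 in SPC3372 mice and 5.77, 5.68 and 6.26 in saline mice. The groups overlap through 1 mouse on each side, saline replicate 3 and SPC3372 replicate 3, which read about the same. The difference of 0.75 (SE 0.41) did not pass (adjusted p = 0.356 by limma), and the highest mouse was replicate 2, the lowest for Cxcl9.

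The sequences upstream of Cxcl9, Cxcl10 and Cxcl1 are shown because these genes have known interferon or NF-kB control and behaved differently at day 3. Each line gives the 250 bases before the gene's start, 5′ to 3′ on the gene's strand, from the RefSeq table of GRCm38.p6, at chr5:92328080-92328329 (minus strand) for Cxcl9, chr5:92348890-92349139 (minus strand) for Cxcl10 and chr5:90890995-90891244 (plus strand) for Cxcl1. Capitals mark matches to any of 3 motifs searched on both strands, a core of the interferon-stimulated response element (GAAA, any 2 bases, GAAA), the gamma-activated site bound by STAT factors (TTC, any 3 bases, GAA) and a form of the NF-kB site (GGG, any 2 bases, TTTCC).
Cxcl9: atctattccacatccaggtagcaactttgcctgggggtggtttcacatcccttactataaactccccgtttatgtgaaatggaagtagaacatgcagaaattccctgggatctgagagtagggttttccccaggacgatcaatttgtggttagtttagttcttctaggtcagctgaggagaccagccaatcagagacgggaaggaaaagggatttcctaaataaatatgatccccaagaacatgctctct
Cxcl10: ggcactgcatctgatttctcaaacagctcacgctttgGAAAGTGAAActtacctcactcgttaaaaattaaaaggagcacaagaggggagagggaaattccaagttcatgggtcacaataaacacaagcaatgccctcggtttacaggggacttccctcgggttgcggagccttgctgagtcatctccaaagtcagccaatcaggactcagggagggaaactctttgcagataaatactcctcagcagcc
Cxcl1: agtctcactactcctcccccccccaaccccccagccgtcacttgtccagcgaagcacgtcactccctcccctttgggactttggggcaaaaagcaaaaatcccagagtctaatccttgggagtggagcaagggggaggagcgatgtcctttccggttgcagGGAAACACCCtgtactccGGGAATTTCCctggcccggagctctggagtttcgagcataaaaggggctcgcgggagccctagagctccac

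The Cxcl10 window holds GAAAGTGAAA, a match to the first motif, 213 to 204 bases before the start. The Cxcl1 window holds a pair of matches to the third motif, at 89 to 80 and 71 to 62 bases before the start, the first of them on the reverse strand. The pair do not overlap each other. The Cxcl9 window, and that of Cxcl13, held no match to any of the 3, which says only that these letters are not in these 250 bases. The same limit holds for the motifs not matched in the Cxcl10 and Cxcl1 windows. Other forms of the NF-kB site were not searched, so the matches do not sort these genes by their control. Over all 32851 windows of the table, 2.98% hold the first motif, 7.02% the second and 1.41% the third. Of the 9 chemokines, 4 had a window in the table.

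Cxcl1 attracts neutrophils through Cxcr2, and at day 3 it was high in a saline mouse rather than in treated mice. Its values were 6.90, 6.82 and 7.12 in SPC3372 mice and 6.86, 6.76 and 8.85 in saline mice, where replicate 3 stood apart. The difference of -0.55 (SE 0.42) did not pass (adjusted p = 0.547 by limma). The other probe sets read in the same mouse 8.72 (1419209_at) and 7.50 (1441855_x_at), again the highest of their 6 values at day 3. Saline replicate 3 was also the saline mouse with the highest value of Cxcl9, Cxcl10, Cxcl16, Ccl2 and Ccl7 at day 3.

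Cxcl13, which draws B cells through Cxcr5, had SPC3372 mice wholly above saline mice at day 3 without passing the test. It read 5.57, 5.97 and 5.96 in SPC3372 mice and 5.40, 5.31 and 5.34 in saline mice (difference 0.48, SE 0.18, adjusted p = 0.143 by limma). The other Cxcl13 probe set, 1417851_at, read 5.05, 6.85 and 5.97 in SPC3372 mice and 4.45, 4.79 and 5.58 in saline mice, with a difference of 1.02 (SE 0.34, adjusted p = 0.149 over every probe set). Its groups overlap, and its highest value was in replicate 2. With Cxcl9 and Ccl5, Cxcl13 was among the 3 of 9 chemokines whose day 3 groups did not overlap, all with SPC3372 above, beside 11.1% of all genes.

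The other 4 chemokines gave small differences at day 3, of which 0 passed. Cxcl16, a membrane-bound ligand of Cxcr6 that is shed by proteases such as Adam10, averaged 7.13 ± 0.06 in SPC3372 and 6.95 ± 0.28 in saline mice (SD, n = 3 each). Ccl2, the main ligand of Ccr2 and an attractant of monocytes, averaged 5.36 ± 0.11 in SPC3372 and 5.24 ± 0.10 in saline mice. Ccl7, which shares that receptor and lies 8259 bases from Ccl2, averaged 3.56 ± 0.06 in SPC3372 and 3.69 ± 0.09 in saline mice. Ccl4, an attractant of T cells and monocytes, averaged 5.96 ± 0.10 in SPC3372 and 5.98 ± 0.11 in saline mice. The differences ran from -0.12 (Ccl7) to 0.18 (Cxcl16), the groups overlapped in each of the 4, and the adjusted p lay between 0.596 and 0.963 by limma. Ccl7 was dim throughout, at percentile 14.1 of genes by level.

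At day 9, 7 days after the dose, 0 of the 9 chemokines passed the limma test in either direction. Of all genes, 1.91% were called higher and 0.896% lower at the same adjusted threshold. At an unadjusted p below 0.05 the count was also 0 of 9, and the share of all genes was not computed. Cxcl9 stood at 7.74, 8.42 and 7.50 in SPC3372 mice and at 8.41, 8.21 and 8.47 in saline mice. The SPC3372 mice now lay around or below the saline mice (difference -0.47, SE 0.54, adjusted p = 0.715). Ccl5 read 5.40, 5.46 and 5.98 in SPC3372 and 5.24, 5.49 and 5.42 in saline mice, with 1 SPC3372 mouse above all saline mice (difference 0.23, SE 0.19, adjusted p = 0.585).

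Cxcl10 at day 9 varied between mice of both groups. It read 6.30, 7.51 and 5.88 in SPC3372 mice and 6.03, 7.58 and 6.26 in saline mice. Each group held 1 high mouse, which was replicate 2 in both. The difference was -0.06 (SE 0.41). The SD of the SPC3372 mice, 0.85, was exceeded by 45 of the 18193 genes. Cxcl1 ran from 7.43 to 7.94 in SPC3372 and from 6.80 to 7.95 in saline mice. Cxcl13 read 5.24, 4.92 and 5.53 in SPC3372 and 5.17, 5.86 and 5.35 in saline mice (difference -0.23, SE 0.18). Of the 9 chemokines 0 had SPC3372 mice wholly above saline mice at day 9, beside 10.4% of all genes.

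At day 23, 21 days after the dose, again 0 of 9 passed in either direction, beside 0.187% of all genes called higher and 0.198% called lower, and 1 of 9, Cxcl13, had an unadjusted p below 0.05. Cxcl9 read 8.66, 8.65 and 8.76 in SPC3372 and 8.51, 8.50 and 9.57 in saline mice, so the wider spread was now among saline mice. Ccl5 read 5.43, 5.09 and 5.11 in SPC3372 and 5.35, 5.63 and 5.17 in saline mice, which overlap (difference -0.18, SE 0.19, adjusted p = 0.742 by limma). Cxcl10 read 6.36, 6.23 and 7.02 in SPC3372 and 6.04, 5.76 and 6.58 in saline mice (difference 0.42, SE 0.41). Here too the groups overlap, with 1 SPC3372 mouse above all saline mice. Cxcl1 ran from 7.14 to 7.38 in SPC3372 and from 7.15 to 8.12 in saline mice, in which replicates 1 and 2 were the high ones (difference -0.48, SE 0.42). The day 23 differences of Cxcl16, Ccl4 and Ccl7 were -0.13, 0.07 and -0.10, and those of day 9 were 0.06, -0.11 and 0.05, all with overlapping groups.

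Cxcl13 and Ccl2 had SPC3372 mice wholly below saline mice at day 23. Cxcl13 read 5.27, 4.85 and 5.25 in SPC3372 and 5.49, 5.78 and 5.56 in saline mice (difference -0.48, SE 0.18, adjusted p = 0.214 by limma). Its other probe set, 1417851_at, read 4.58, 5.02 and 4.31 in SPC3372 and 5.03, 5.47 and 5.70 in saline mice. There too the groups did not overlap (difference -0.76, SE 0.34, adjusted p = 0.384 by limma over every probe set). Ccl2 read 5.06, 5.20 and 5.34 in SPC3372 and 5.38, 5.40 and 5.43 in saline mice (difference -0.20, SE 0.12, adjusted p = 0.488). These 2 of 9 compare with 11.1% of all genes whose day 23 groups do not overlap in this direction, while 0 of 9 had SPC3372 mice wholly above, beside 8.12%. Neither difference passed the test.

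Livers of the 3 SPC3372 mice of day 23 were also measured on p0617 arrays, which shows how far arrays of the same animal can differ. Cxcl9 differed by at most 0.05 in size between the 2 arrays of a mouse (p0621 minus p0617). Cxcl13 differed by -0.16, -0.40 and -0.38 in the 3 mice, so the p0621 arrays used at day 23 were the lower ones in all 3. This was not so for its other probe set, 1417851_at. It read 4.584, 5.021 and 4.313 on p0621 and 4.495, 4.511 and 4.452 on p0617 arrays. Ccl2 differed by -0.05, 0.06 and 0.37 and Ccl4 by 0.32, -0.02 and 0.69. The differences between arrays thus reached 0.40 in size for Cxcl13 and 0.37 for Ccl2. They include any shift shared by a whole set, which the day 23 comparison within p0621 does not. Their sizes therefore cannot be set directly against the group differences of -0.48 and -0.20.

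**Figure D3:**
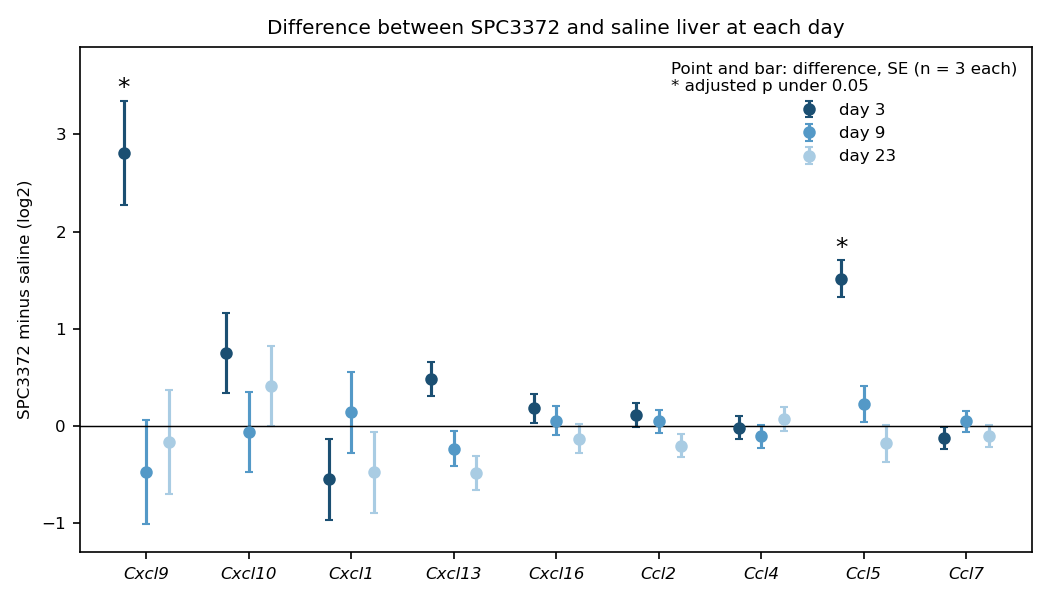
Difference between SPC3372 and saline mice (log2, y axis) for the 9 chemokines (x axis) at days 3, 9 and 23, as points with bars of 1 SE of the limma fit (n = 3 each). The asterisks mark the differences with an adjusted p below 0.05, which are Cxcl9 (2.81) and Ccl5 (1.52) at day 3.

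Whether the day 3 effect differed from that of later days was tested directly. Of the 9 chemokines 1 passed for day 23 minus day 3, beside 0.302% of all genes, and 0 passed for day 9 minus day 3, beside 0.143%. The passing gene was Ccl5, whose difference between SPC3372 and saline mice changed by -1.69 from day 3 to day 23 (SE 0.27, adjusted p = 0.00874 by limma). Days 3 and 23 were on different array sets. With the p0617 arrays of the SPC3372 mice of day 23 the change was -1.52 (adjusted p = 0.0123 by limma). With all 21 arrays and array set as a term it was -1.69 (adjusted p = 0.00255 by limma). That fit cannot test the array set, because its estimate is fixed at that of the main fit. The saline mice of day 23 were on p0621 arrays only. On p0617 arrays the SPC3372 mice of day 23 averaged 5.38 ± 0.07, against 6.77 ± 0.43 in SPC3372 mice of day 3 (SD, n = 3 each). For day 9 minus day 3 the Ccl5 effect changed by -1.29 (SE 0.27, adjusted p = 0.0619 by limma). This passed without SPC3372 replicate 2 of day 3 (-1.52, adjusted p = 0.0167) or without SPC3372 replicate 3 of day 9 (-1.47, adjusted p = 0.0375). The first of these had the smallest rise at day 3 and the second the highest value at day 9. Without any other 1 mouse it did not pass (adjusted p up to 0.156).

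The Cxcl9 effect changed by -3.28 from day 3 to day 9 (SE 0.76, adjusted p = 0.0928 by limma) and by -2.97 to day 23 (SE 0.76, adjusted p = 0.141), so neither passed. Both passed without SPC3372 replicate 2 of day 3 (-4.14, adjusted p = 0.0024, and -3.83, adjusted p = 0.00277 by limma). That was the mouse with the smallest rise, so leaving it out enlarges the change. Neither passed without any other 1 mouse, with adjusted p up to 0.205 to day 9 and 0.262 to day 23. The Cxcl13 effect changed by -0.71 to day 9 (SE 0.25, adjusted p = 0.273) and by -0.97 to day 23 (SE 0.25, adjusted p = 0.147). Comparisons of a later day with day 3 share the day 3 mice.

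Between saline mice of day 9 and day 3, which differ in day but not in drug, 0 of the 9 chemokines passed, beside 5.88% of all genes, and 0 of 9 had an unadjusted p below 0.05. The largest differences were those of Cxcl10 (0.72, SE 0.41, adjusted p = 0.399 by limma) and Cxcl9 (0.43, SE 0.54, adjusted p = 0.772). The Ccl5 difference was 0.13 (SE 0.19).

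Other chemokine ligands mostly did not pass. Of 26 measured ligands outside the 9, 2 rose and 1 fell at day 3, and their median difference was 0.03, beside 0.01 for all genes. Ccl6, a CC chemokine of rodents made by myeloid cells, rose 1.68-fold (log2 0.74, SE 0.14, adjusted p = 0.00586 by limma). Ccl24, an attractant of eosinophils, rose 1.58-fold (log2 0.66, SE 0.18, adjusted p = 0.0472), a call that ended without any 1 of the 3 SPC3372 mice or without saline replicate 1 or 2 (adjusted p up to 0.183). Ccl25, a ligand of Ccr9, was 1.75-fold lower (log2 -0.81, SE 0.13, adjusted p = 0.00166).

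At day 9, 1 of the 26 ligands rose and 0 fell. It was Cxcl12, the ligand of Cxcr4, at 1.48-fold (log2 0.57, SE 0.14, adjusted p = 0.0364 by limma). That call ended without any 1 of the 3 SPC3372 mice or without saline replicate 2 or 3 of day 9 (adjusted p up to 0.154). At day 23, 0 of 26 passed in either direction, while 5 had an unadjusted p below 0.05.

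No chemokine receptor passed at any day: 0 of 21 measured receptors were called at day 3, 9 or 23, with 3, 2 and 1 at an unadjusted p below 0.05. At day 3 Cxcr3, the receptor of Cxcl9 and Cxcl10, differed by 0.13 (SE 0.12), Cxcr2 by 0.26 (SE 0.13) and Cxcr6 by 0.21 (SE 0.16). Ccr2 differed by 0.08 (SE 0.17), Ccr1 by 0.21 (SE 0.16) and Cxcr5 by -0.01 (SE 0.13). Only 3 of the 21 receptors lay above the median level of all genes. The median over the 21 was 0.15 at day 3, beside 0.01 for all genes, and 17 of the 21 differences were positive.

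Of 31 measured genes for cytokines that induce chemokines, their receptors, their signalling, and proteases acting on chemokines, 4 rose and 0 fell at day 3. Irf7, an interferon regulatory factor, rose 6.52-fold, with 8.72, 9.46 and 8.72 in SPC3372 mice and at most 6.70 in saline mice (adjusted p = 1.3e-06 by limma). Irf9 and Stat2, subunits of a factor that binds interferon-stimulated response elements, rose 1.85-fold (adjusted p = 0.000603) and 1.47-fold (adjusted p = 0.0414). The Stat2 call ended without any 1 of 5 of the 6 day 3 mice, all but SPC3372 replicate 3 (adjusted p up to 0.157). Adam10, the protease that sheds Cxcl16, rose 1.56-fold (log2 0.64, SE 0.09, adjusted p = 0.000657).

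Cytokines known to induce Cxcl9, and Irf1, did not pass at day 3. Ifng, the gene of interferon gamma, differed by 0.07 (SE 0.14), Irf1, which interferon gamma induces, by 0.25 (SE 0.12, adjusted p = 0.275 by limma), Tnf by 0.26 (SE 0.11, adjusted p = 0.192) and Il1b by 0.07 (SE 0.25). At day 9, 2 of the 31 rose, Irf7 (1.82-fold, adjusted p = 0.0342) and Irf9 (1.43-fold, adjusted p = 0.0376). The Irf7 call of day 9 ended without any 1 of 5 mice, all but SPC3372 replicate 2 (adjusted p up to 0.148), and the Irf9 call without any 1 of the 6 (adjusted p up to 0.134). At day 23, 0 passed, and 8 had an unadjusted p below 0.05, among them Il1b (difference -0.98, SE 0.25, adjusted p = 0.0797).

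Markers of several immune cell types moved at day 3 in the same livers. Of 12 Kupffer cell markers 7 rose and 0 fell (median difference 0.82), among them the scavenger receptor Marco (3.95-fold), Folr2 (2.06-fold) and the lectin Clec4f (2.05-fold). Of 8 NK cell markers 4 rose (median 0.45), among them the granzymes Gzma (2.65-fold) and Gzmb (2.17-fold). Of 7 monocyte markers 1 rose, Plac8 (2.78-fold), which other white cells express too. Of 6 B cell markers 1 rose, Cd22 (1.41-fold), and of 8 sinusoidal endothelial markers 2 rose, Clec1b and Clec4g. None of 10 T cell, 8 neutrophil or 7 dendritic cell markers passed (0 of each), with 3, 1 and 0 at an unadjusted p below 0.05 by limma. At day 9 Plac8 (1.77-fold) and Clec4g (1.39-fold) were the markers that rose, the Clec4g call ending without any 1 of 5 of the 6 mice (adjusted p up to 0.165), and at day 23 there were 0.

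**Figure D4:**
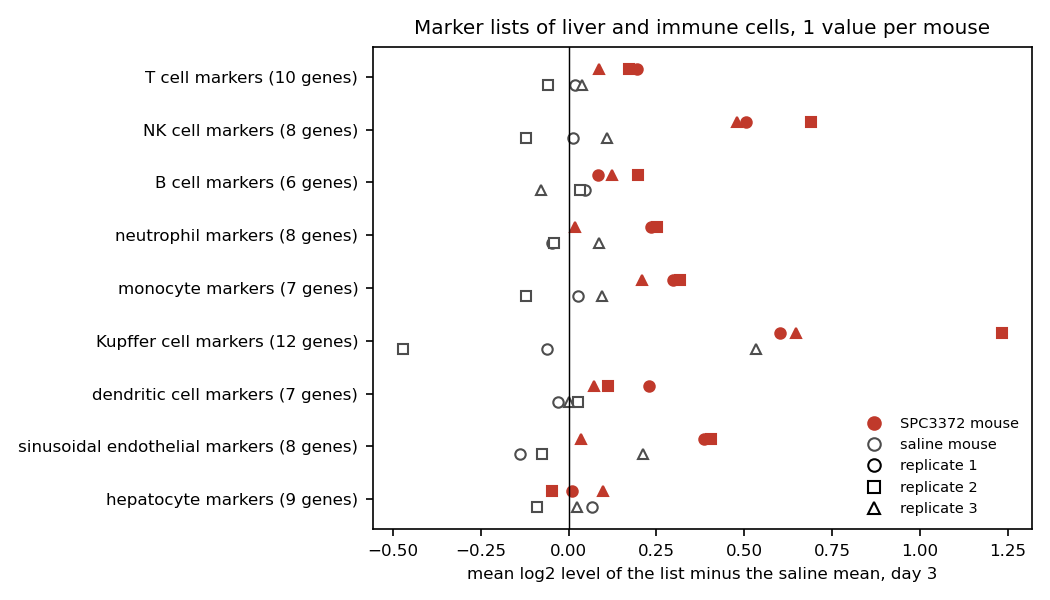
Mean log2 level of each marker list minus the mean of the saline mice of day 3 (x axis), with 1 point per mouse, filled for SPC3372 and open for saline, and the marker lists down the page. NK cell markers lay between 0.48 and 0.69 in SPC3372 mice and between -0.12 and 0.11 in saline mice, and Kupffer cell markers lay highest in SPC3372 replicate 2 (1.23).

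Across the 3 SPC3372 mice of day 3 these lists were ordered differently from Cxcl9. The Kupffer cell markers lay 0.60, 1.23 and 0.65 above the saline mean in SPC3372 replicates 1, 2 and 3, and -0.06, -0.47 and 0.53 from it in saline replicates 1, 2 and 3. The NK cell markers lay 0.51, 0.69 and 0.48 above it in SPC3372 mice and 0.01, -0.12 and 0.11 from it in saline mice. In neither list did the groups overlap, nor did they in the T cell, B cell, monocyte and dendritic cell lists. They overlapped in the neutrophil, sinusoidal endothelial and hepatocyte lists. Of single genes, 11.1% had SPC3372 mice wholly above saline mice at day 3, and no such share was computed for list means. Some gaps were narrow, as in the B cell list (lowest SPC3372 mouse 0.09, highest saline mouse 0.05). Among SPC3372 mice the Kupffer cell and NK cell lists were highest in replicate 2, where Cxcl9 and Ccl5 were lowest and Cxcl10 and Irf7 highest. The B cell, monocyte, neutrophil and sinusoidal endothelial lists were also highest in that mouse, and the T cell and dendritic cell lists in replicate 1. T cell markers lay 0.19, 0.17 and 0.09 above the saline mean in SPC3372 mice and 0.02, -0.06 and 0.04 from it in saline mice. The part of any of these cell types in the rise of Cxcl9 and Ccl5 was not tested.

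Of the called markers, Gzmb lost its call without SPC3372 replicate 2 or saline replicate 2 of day 3 (adjusted p = 0.0581 and 0.0666 by limma). Cd22, Klrd1, Ncr1 and Clec1b each lost theirs without any 1 of 3 to 6 mice, with adjusted p up to 0.147. The other 3 called Kupffer cell markers, Adgre1, Cd5l and Vsig4, named here after their values were seen, lost theirs without any 1 of 1, 4 and 4 mice (adjusted p up to 0.117). Marco, Folr2, Clec4f, C1qc, Gzma, Plac8 and Clec4g kept their day 3 calls without any 1 mouse. Of 31 calls examined in genes other than the 9 chemokines, 16 held without any 1 array of the comparison.

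Genes whose level ran most like Cxcl9 were sought among 9095 genes above the median level over the 18 arrays. The closest was Saa3, an acute-phase gene of the serum amyloid A family (Pearson r = 0.92, Spearman rho = 0.80), which rose 19.9-fold at day 3. Dnm2, a dynamin, followed (r = 0.83, rho = 0.66), then Psme1, an interferon-inducible activator subunit of the proteasome (r = 0.83, rho = 0.90), which rose 1.33-fold, a call that ended without SPC3372 replicate 1 or saline replicate 1 or 2 of day 3 (adjusted p up to 0.0766 by limma). Without the 3 SPC3372 mice of day 3, r over 15 arrays was 0.62 for Saa3, 0.48 for Dnm2 and 0.86 for Psme1. Without the 2 arrays farthest from the Cxcl9 median it was 0.54, 0.55 and 0.87 over 16 arrays.

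The genes most like Ccl5 were Saa3 (r = 0.90, rho = 0.40), Gm9706 (r = 0.85, rho = 0.68) and Shisa5 (r = 0.85, rho = 0.55), and they rose 19.9-fold, 2.00-fold and 1.91-fold at day 3. Without the SPC3372 mice of day 3 these r values were -0.16, 0.27 and 0.36 over 15 arrays, so the likeness rests mainly on those 3 mice. Without the 2 farthest arrays they were 0.60, 0.70 and 0.72. For Cxcl10 the closest genes were Mpp7 (r = 0.77, rho = 0.37), Kcmf1 (r = 0.70, rho = 0.56) and Itga2b (r = 0.65, rho = 0.65), of which 0 passed at day 3. Mice of a group share treatment and day, and the arrays of a set share that set. Over the same 18 arrays Cxcl9 and Ccl5 correlated at 0.72 and Cxcl9 and Cxcl10 at 0.20.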

How the data were processed

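Liver RNA of 18 mice was measured on 21 Affymetrix arrays, of which 18 entered the fit. The authors deposited log2 values, 1 for each probe set and array, computed with RMA per the submitters' processing notes. No source used here states its version or which arrays were normalised together. Whether folds of dim probe sets are understated was not tested. Array medians ran from 4.75 to 4.82, and the number of arrays limits the precision.

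Gene names came from the platform's annotation, in which 34945 had 1 gene symbol, 932 several and 9160 none. The probe set with the highest mean stood for its gene. A group-means model of the 6 groups was fitted over 18193 genes with limma 3.58.1 in R 4.3.3, with 12 residual degrees of freedom and eBayes moderation, and p-values were adjusted over all genes by Benjamini-Hochberg. Called means an adjusted p below 0.05. Counts at an unadjusted p below 0.05 have no share of all genes beside them, because it was not computed at that threshold. The p-values rest on the spread between mice within groups, pooled over the 6 groups of 3 mice and moderated, not on that of the compared groups alone. The fit was tested on simulated data in which each gene had the same spread in every group. The SD of Cxcl9 at day 3 was 1.64 in SPC3372 and 0.52 in saline mice, a case that the simulation does not cover. Promoter windows were read with Python 3.11.15 and figures drawn with matplotlib 3.10.9.

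Members and gene lists were chosen with earlier results of these data known. Named are all 9 chemokines, the called genes of each other list (at most 4 per list and day, by size), the receptors Cxcr3, Cxcr2, Cxcr5, Cxcr6, Ccr2 and Ccr1, the inducers Ifng, Tnf, Il1b and Irf1, the 3 genes most correlated with Cxcl9, Cxcl10 and Ccl5, and Alb and Apoa1. Some listed genes are not reported here. Alternatives changed the arrays fitted, the normalization, the filter on low values, the probe set summary, the variance model, a replicate block, the size threshold and the day 23 arrays, and left out each array in turn.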

Additional observations from a re-analysis of the deposited data

Results flagged for a closer look

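The Ccl5 difference between SPC3372 and saline mice was not the same at day 23 as at day 3. It was -0.18 at day 23 and 1.52 at day 3, a change of -1.69 (SE 0.27) by a test of the difference itself (adjusted p = 0.00874 by limma over 18193 genes). All 3 SPC3372 mice lay above all saline mice at day 3, and the groups overlapped at day 23. Day 3 was measured on p0617 and day 23 on p0621 arrays. The change was -1.52 (adjusted p = 0.0123) with the p0617 arrays of the SPC3372 mice of day 23, and -1.69 (adjusted p = 0.00255) with all 21 arrays and array set as a term. The saline mice of day 23 were on p0621 arrays in each of these fits. With array set as a term the estimate is therefore fixed at that of the main fit and does not test the set.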

How the results depend on the processing

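Ccl5 at day 3 stayed called in all 15 alternatives that gave it a value (log2 difference 1.32 to 1.75), and its change from day 3 to day 23 in 21 of 22, the exception being the test against 1.5-fold (adjusted p = 0.415 by limma). Ccl5 lies below the median level and has no value under that filter. Cxcl9 at day 3 stayed called in 14 of 16, lost in a fit restricted to day 3 arrays and in the test against 1.5-fold. No called result examined changed direction. Some differences that were not called did change sign between settings. Among them were Cxcl1 at day 3 (-0.91 to 0.13), Cxcl10 at day 9 (-0.53 to 0.42) and Cxcl9 at day 23 (-0.34 to 0.19). The Ccl5 change from day 3 to day 9 also passed with an intensity trend and robust prior (adjusted p = 0.0493) and with all 21 arrays (adjusted p = 0.0338). Chemokines called at day 3 numbered 1 in place of 2 on the day's own arrays, among genes above the median level and against 1.5-fold, and stayed at 2 without any 1 array; at days 9 and 23 they stayed at 0 throughout.

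Over all genes, calls numbered 821 at day 3, 511 at day 9, 70 at day 23, 26 and 55 for the change from day 3 to days 9 and 23, and 1070 between saline days. On the comparison's own arrays these were 253 at day 3, 132 at day 9, 0 at day 23, 7 for the change to day 9 and 693 between saline days. Against 1.5-fold they were 28, 0, 0, 4, 7 and 34. Calls at day 23 were 139 after quantile normalization, 43 after median centring, 340 among genes above the median level, 210 with a trend and robust prior, 137 with all 21 arrays (41 for the change to day 9) and 179 with the p0617 arrays of the SPC3372 mice. The cause was not tested. The labels do not say that replicate numbers pair the mice, and deviations of same-numbered mice of a day correlated at -0.14 to 0.08. Mice with different numbers were not set beside these, so the values cannot exclude a pairing. With the replicate number as a block, calls at day 23 fell to 13, and no chemokine call changed. Without 1 array, calls ran from 435 to 876 at day 3, 176 to 390 at day 9, 3 to 72 at day 23, 7 to 64 and 24 to 106 for the changes to days 9 and 23, and 608 to 902 between saline days.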
